A study of Mus musculus with 10 samples.

Results

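Forskolin is a plant compound that switches on adenylyl cyclase, the enzyme that makes cAMP, and so mimics an adrenergic signal to the fat cell. Chromatin accessibility after 3 days of forskolin was compared here with that after 1 day, to see how stable the late state of the treated adipocytes was. The comparison rests on 4 of the 10 libraries of the series, the 3-day libraries S7 and S8 and the 1-day libraries S5 and S6, and on all 122984 peaks of the deposited count table, of which 118954 passed the filter on low counts. The libraries are named by the running numbers of their columns. These numbers give the group but do not say which labelled replicate a column holds.

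The cells of every library were MAP cells, immortalized adipocyte progenitors of the mouse that had been turned into adipocytes in culture. Every group, the untreated controls included, had been differentiated with insulin, 500 µM isobutylmethylxanthine (a phosphodiesterase inhibitor), 1 µM dexamethasone and 1 µM rosiglitazone (a PPARγ agonist), then with insulin and rosiglitazone. At day 7 to 8 the adipocytes received vehicle (control, S1 and S2), forskolin for 4 hours (S3 and S4), 1 day or 3 days, or rosiglitazone for 3 days (S9 and S10). The sources used here do not give the forskolin dose. The labels give no length of vehicle treatment, name no vehicle group for 1 or 3 days and do not say if starts were staggered. Length of forskolin treatment therefore cannot be told apart from time in culture. The adipocytes come from 1 line, and the labels do not say if a group's libraries were separate cultures, so the p-values measure the spread between these libraries, which may be technical.

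In adipocytes cAMP activates protein kinase A, which phosphorylates CREB at cAMP response elements and sets off lipolysis. Genes of this pathway include its own brakes, such as the phosphodiesterases that break cAMP down, and in brown and beige fat the thermogenic genes Ucp1 and Ppargc1a. ATAC-seq reads the response at the level of DNA: a transposase cuts open chromatin, and the count in a peak measures how open that stretch was. It does not measure transcription.

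Total counts in peaks were 17002986 (S5), 18935287 (S6), 16287650 (S7) and 13031199 (S8), against a range of 10410233 to 18935287 over the series. S8 stood apart from the other 3 libraries. Over peaks, the chi-square of the counts per degree of freedom was 2.35 between the 1-day libraries, 2.85 and 2.63 between S7 and each of them, 3.38 between S7 and S8, and 5.05 and 4.34 between S8 and each 1-day library. Of its counts, 45.0% fell in gene-end peaks (within 1 kb of an annotated end of a protein-coding gene), against 40.2%, 41.9% and 41.4% in S5, S6 and S7 and 45.1% and 46.6% in the controls. The peak over an rRNA pseudogene (chromosome 17, 39843034 to 39847248) took 0.621% of the counts of S8, against 0.334%, 0.352% and 0.448% in S5, S6 and S7. The main counts of calls are therefore also given without S7 and without S8. Their part in the results below, beyond these values, was not tested.

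Between 1 and 3 days few peaks were called. Of 118954 tested peaks 222 passed the test (0.187%), 130 of them risen (0.109%) and 92 fallen (0.0773%), by edgeR's quasi-likelihood test with Benjamini-Hochberg adjustment at 0.05. The step before, from 4 hours to 1 day, called 6621 peaks (5.57%); the comparisons share the 1-day libraries. At an unadjusted p below 0.05 there were 11994 peaks (10.1%), and DESeq2's Wald test called 34 risen and 4 fallen. With the libraries scaled by library size alone, 120 peaks rose and 174 fell, so the balance of direction depends on the scaling; over all tested peaks the log2 fold change had a median of −0.02 with TMM scaling. Fold changes of risen peaks ran from 0.51 to 2.53 on the log2 scale with a median of 0.69. Fallen peaks had a median of −0.77, and only 27 risen and 26 fallen peaks were called with an estimate of 2-fold or more. One fallen peak had 0 counts in both 3-day libraries, and the next lowest estimate was −2.27.

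The number of calls depended on which libraries were in the fit. Without S8 there were 5 risen and 0 fallen peaks (4163 fell at an unadjusted p below 0.05 in that fit), all 5 of them also called in the full fit. Without S7 there were 2255 risen and 831 fallen, and 124 of the 130 risen and 80 of the 92 fallen peaks of the full fit were among them. Leaving out a 1-day library left 8 risen and 1 fallen (without S5) or 21 risen and 5 fallen (without S6). In the fits without a 3-day library, the remaining one is assumed to vary like the other groups. In the full comparison both 3-day libraries lay above both 1-day libraries in all 130 risen peaks and below them in all 92 fallen peaks, whereas over all tested peaks this was so for 17.7% upward and 22.4% downward. S8 was the higher of the 3-day libraries in 120 of the 130 risen peaks and the lower in 73 of the 92 fallen peaks.

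**Figure D1:**
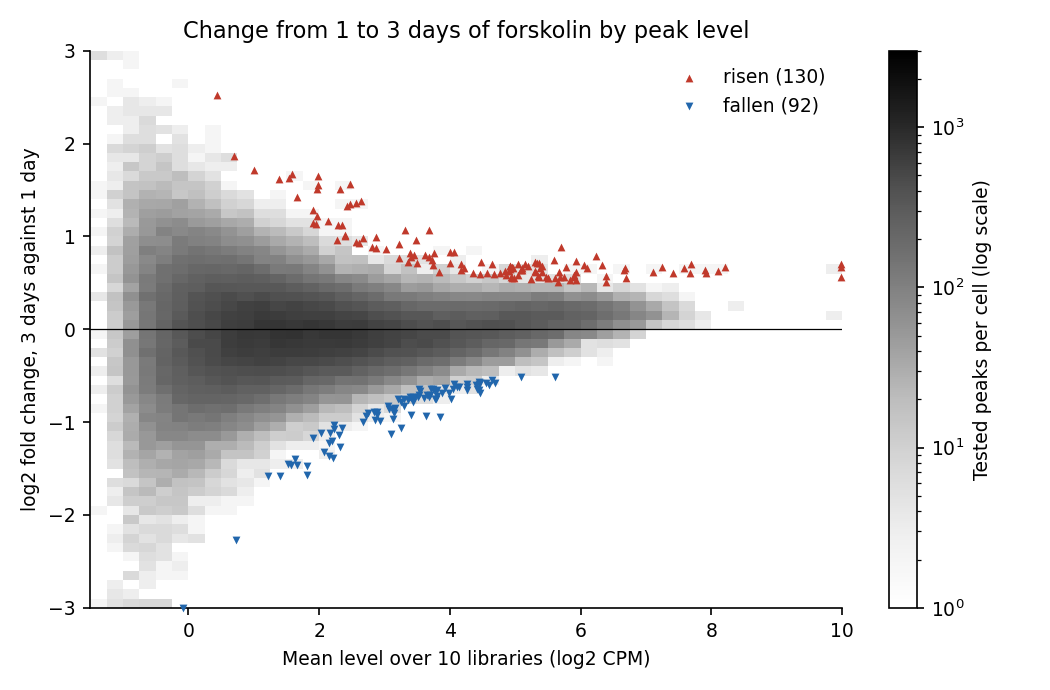
Log2 fold change of 3 days against 1 day of forskolin (vertical axis) by mean level in log2 CPM over all 10 libraries (horizontal axis). Grey cells give the number of tested peaks on a log scale; triangles are the 130 risen and 92 fallen peaks, and values beyond the axes are drawn at the edge. Most peaks lie close to 0, and the cloud at 5 log2 CPM and above sits above 0.

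The precision of the data bounds what could have moved. The 95% interval of the fold change lay within 2-fold either way for 66351 peaks (55.8%) and within 1.5-fold for 23.9%. It reached past 2-fold for 52603 peaks, and for 36 peaks the whole interval lay past 2-fold. The bound depended on depth. Of the 26601 peaks with a mean of 3 log2 CPM or more, 99.5% had their interval within 2-fold, as had 92.0% at 2 to 3, 62.4% at 1 to 2, 12.7% at 0 to 1 and 0.0747% below 0. For peaks at 3 log2 CPM or more a change of 2-fold was thus outside the interval nearly everywhere, and for most peaks below 1 log2 CPM it was inside. Of the 36 peaks with the whole interval past 2-fold, 23 had a mean below 0 log2 CPM and 8 a mean of 0 to 1. Estimates alone lay within 1.5-fold for 84.3% of peaks here, against 74.9% from 4 hours to 1 day and 54.1% from control to 4 hours.

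Of the called peaks with a mean level at or above the median of tested peaks, the 10 with the largest rise and the 10 with the largest fall are described here. The peak in the body of Eif2ak4, which encodes the amino acid sensing kinase GCN2 (chromosome 2, 118444245 to 118445411, mm10), stood at 3.58 and 4.13 CPM (TMM-scaled CPM, the unit of all levels here) in S5 and S6 and at 8.73 and 13.4 CPM in S7 and S8. No library outside the 3-day group exceeded 4.13 CPM, as the controls held 3.63 and 2.73, the 4-hour libraries 3.02 and 3.80 and the rosiglitazone libraries 3.92 and 1.85. Its log2 fold change was 1.51 (SE 0.245, adjusted p = 0.000396; without S8 1.18, adjusted p = 0.241).

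The peak nearest to Ddr1, a collagen receptor tyrosine kinase (chromosome 17, 35709434 to 35710255), lay outside the gene and rose from 4.53 and 4.84 to 10.2 and 14.6 CPM (1.39, SE 0.216, adjusted p = 0.00039; without S8 1.11, adjusted p = 0.148). It had been at 4.64 and 7.18 CPM in the controls and at 2.10 and 2.78 after 4 hours, and so passed its starting level. The peak in the body of Ncoa1, a nuclear receptor coactivator gene (chromosome 12, 4292197 to 4293244), held 6.76 and 7.18 CPM in the controls and 2.17 and 3.32 after 4 hours. It then held 4.42 and 4.23 CPM after 1 day and 9.26 and 13.1 after 3 days (1.36, SE 0.222, adjusted p = 0.000405; without S8 1.10, adjusted p = 0.193). It had closed at 4 hours and stood above control in both 3-day libraries.

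The other risen peaks that the naming rule took lay in Cdh6, a cadherin gene (1.68, SE 0.312, adjusted p = 0.00317), Ppm1h, a phosphatase gene (1.66), Lamc3, a laminin chain gene (1.63), Efr3b (1.56), Myo16, a myosin gene (1.51), and P2rx7, which encodes an ATP-gated channel (1.42), and near Hhip, whose product binds hedgehog ligands (1.56). In Lamc3 the levels were 1.28 and 1.22 CPM at 1 day and 4.19 and 3.56 at 3 days, so S7 was the higher library there. In Cdh6 they were 1.73 and 2.80 at 1 day and 4.54 and 10.3 at 3 days, so the 3-day libraries did not overlap with the 1-day libraries but differed by more than 2-fold from each other. Without S8 the adjusted p of these 10 peaks ran from 0.132 in Lamc3 to 0.685 in Cdh6. Coro2b, a gene of an actin-binding protein, chosen after the values were seen, held a peak whose rise passed without S8 too (10.7 and 12.4 to 22 and 19.0 CPM; 0.83, SE 0.147, adjusted p = 0.00175; 0.0153 without S8 and 0.00857 without S7).

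Peaks that fell most were in part peaks that forskolin had opened. At the Golim4 peak (chromosome 3, 75948624 to 75949119), in the body of a Golgi protein gene, the controls held 1.51 and 2.72 CPM, the 4-hour libraries 10.8 and 9.06, the 1-day libraries 6.32 and 6.62 and the 3-day libraries 2.89 and 2.45. The 3-day libraries lay below both 1-day libraries and close to the controls and the rosiglitazone libraries (2.27 and 2.41). The log2 fold change from 1 to 3 days was −1.26 (SE 0.256, adjusted p = 0.00824; without S8 −1.16, adjusted p = 0.304).

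A gene-end peak of Dnmt1, the maintenance DNA methyltransferase (chromosome 9, 20906695 to 20907134), chosen after its values were seen, was nearly closed in the controls at 0.808 and 0.826 CPM. It stood at 5.65 and 7.24 CPM after 4 hours, 4.47 and 4.18 after 1 day and 2.01 and 1.03 after 3 days (−1.46, SE 0.328, adjusted p = 0.0238; without S8 −1.10, adjusted p = 0.582). Both 3-day libraries lay below both 1-day libraries and above both controls. The peak in Ptgs1, the cyclooxygenase 1 gene (chromosome 2, 36243074 to 36243753), also chosen afterwards for its small p, was at 5.55 and 5.86, then 17.3 and 16.5, then 12.7 and 14.1, and at 3 days 7.31 and 5.38 CPM (−1.06, SE 0.182, adjusted p = 0.0011; without S8 −0.87, adjusted p = 0.193).

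Other fallen peaks of the naming rule that had opened at 4 hours lay in Phldb2 (−1.40), Cux1, a homeobox factor gene (−1.37), and Zdhhc21, a palmitoyltransferase gene (−1.23), near Chrna9, a nicotinic receptor subunit gene (−1.32), and over 100 kb from any gene on chromosome 5 (53409678 to 53410100; −1.38). At the chromosome 5 peak S5 and S6 held 9.11 and 6.93 CPM, as much as the 4-hour libraries (9.27 and 6.94), and S7 and S8 held 3.72 and 2.29. Of the fallen peaks that the rule took, 3 were not called at 4 hours: those near Emp1, an epithelial membrane protein gene (−1.57, SE 0.299, adjusted p = 0.00458), in Sema5a, a semaphorin gene (−1.47), and near Dipk2a (−1.45). At Emp1 the 1-day libraries alone were high, at 5.03 and 5.04 CPM, with all others between 1.59 and 3.68. The last of the 10, on chromosome 4 and assigned to no gene (62755336 to 62755890; −1.47), had closed at 4 hours. Without S8 the adjusted p of the 10 fallen peaks ran from 0.144 at Emp1 to 0.618 at Zdhhc21, and all of them kept their sign.

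**Figure D2:**
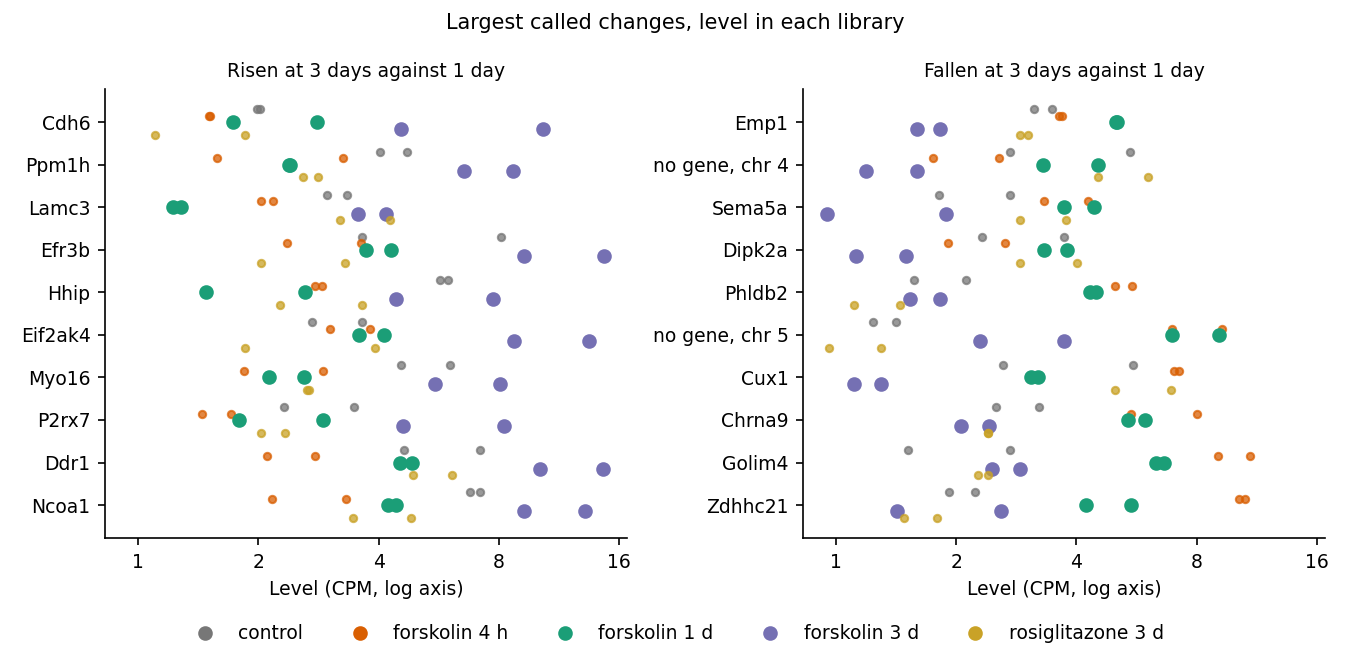
Level of the 10 risen (left) and 10 fallen (right) peaks of the naming rule in each library, in CPM on a log axis; each dot is 1 library, and each row carries the gene the peak was assigned to. The 1-day libraries (green) and 3-day libraries (purple) do not overlap in any row, a property the rule required; in Golim4 the 3-day libraries lie at 2.89 and 2.45 CPM.

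Called changes from 1 to 3 days ran mostly against those of the first 4 hours. For risen peaks this majority rested on peaks of the profile described below. Peaks were classed by the comparison of 4 hours with control, which shares no library with the late comparison: 22005 had opened (18.5% of tested peaks) and 15403 had closed (12.9%). Of the 92 fallen peaks 65 (70.7%) had opened at 4 hours and 6 had closed. Of the 130 risen peaks 88 (67.7%) had closed at 4 hours and 2 had opened. The same calls are a small share of each class, 0.295% of opened peaks fallen and 0.571% of closed peaks risen, beside 0.0773% and 0.109% over all peaks. With peaks like the rRNA pseudogene peak or the one at the start of chromosome 9 set aside, 28 of 68 risen peaks had closed. These were 0.188% of the closed peaks left, beside 0.0576% of all peaks left. The fallen peaks stayed at 65 of 92. Without S7 the shares were 50.9% of 831 fallen and 56.1% of 2255 risen peaks; without S8, 4 of the 5 risen peaks had closed at 4 hours.

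The classes as wholes moved the same way by small amounts. The median log2 fold change from 1 to 3 days was −0.17 for opened peaks, 0.11 for closed peaks and −0.01 for peaks not called at 4 hours. With S7 alone the medians were −0.11 and 0.05 for opened and closed peaks, and with S8 alone −0.26 and 0.13, so both 3-day libraries moved in each direction. Under trended offsets, which remove a dependence on level, they were −0.15 and 0.07. The median level of the opened peaks was 1.04 and 0.963 log2 CPM in the controls, 2.38 and 2.29 after 4 hours, 2.00 and 1.94 after 1 day, 1.88 and 1.72 after 3 days, and 1.14 and 1.12 with rosiglitazone. After 3 days the median of this class still lay above its control level. The class was chosen for a low level in these same controls against 4 hours, so part of this gap is set by the choice. It was likewise chosen for a high level in these 4-hour libraries, so part of the step from 4 hours to 1 day may be set by it too. For the closed peaks this holds with the directions reversed. The closed peaks stood at 3.04 and 3.05 log2 CPM in the controls, 2.07 and 2.10 after 4 hours, 2.50 and 2.48 after 1 day, then 2.58 and 2.52 after 3 days.

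Single called peaks differed in where they stood against the controls. Of the 92 fallen peaks, 83 had a 1-day mean above the control mean, and 48 still had a 3-day mean above it. Of the 130 risen peaks, 118 had a 1-day mean below the control mean, and 77 ended with a 3-day mean above it. The calls select a high 1-day level for fallen peaks and a low one for risen peaks. These counts are therefore partly set by the selection, and the same shares over all peaks were not counted. A fallen peak outside Arid5a, an AT-rich interaction factor gene, chosen after its values were seen, held 9.89 and 13.3 CPM in the controls and 32.5 and 29.2 after 4 hours. It held 38.5 and 36.4 CPM after 1 day and 24.8 and 24.5 after 3 days (−0.60, adjusted p = 0.0131), above both controls throughout. Ppm1l, a protein phosphatase gene, was the only gene with more than 1 fallen peak: its gene-body peak went from 34.2 and 29.6 to 23.4 and 19.1 CPM (−0.58, adjusted p = 0.0316) and its gene-end peak from 10.8 and 9.93 to 6.61 and 4.67 CPM (−0.86, adjusted p = 0.024).

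**Figure D3:**
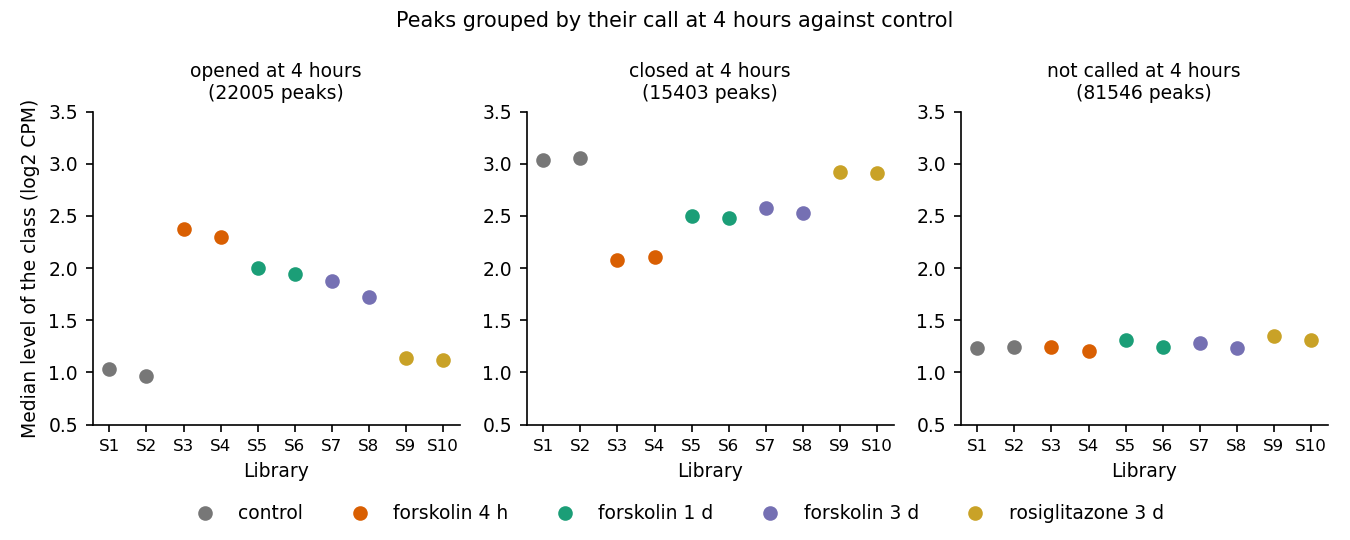
Median log2 CPM of peaks in each library, for peaks opened, closed or not called at 4 hours of forskolin against control; each dot is 1 library and colours mark the groups. The medians of opened peaks step down from 4 hours (2.38 and 2.29) over 1 day (2.00 and 1.94) to 3 days (1.88 and 1.72) and stay above control (1.04 and 0.963). The classes were chosen by the control and 4-hour libraries, which may set part of the first step and of the gap to control.

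The call with rosiglitazone against control split the closed peaks further. Rosiglitazone opened 3834 peaks (3.22%) and closed 3981 (3.35%). Of the 1528 peaks closed both by forskolin at 4 hours and by rosiglitazone, 69 rose from 1 to 3 days (4.52%, 53.1% of all risen peaks), with a class median of 0.20 on the log2 scale. Without S7 there were 381 risen peaks in this class, and without S8 there were 2. Of the 13610 peaks closed at 4 hours but not called with rosiglitazone, 18 rose and 6 fell. Of the 839 peaks that 4 hours of forskolin had opened and rosiglitazone had closed, 11 fell (1.31%) and 0 rose, and the class median was −0.24 (S7 alone −0.16, S8 alone −0.33). Peaks opened by both treatments barely moved, with a median of −0.03 over 1511 peaks. Here the classes rest on the controls for both treatments, so these treatments' calls are not independent of each other. The rRNA pseudogene peak was also lower after 4 hours and with rosiglitazone than in the controls. Of the 130 risen peaks, 62 followed it or the peak at the start of chromosome 9, by the profile defined below. How many of the 69 did so was not counted directly. At most 28 of the 69 followed neither peak, as 28 is the number among all 88 risen peaks that had closed at 4 hours.

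Many risen peaks followed one profile across libraries. For 735 tested peaks (0.618%) the log2 CPM over the 6 libraries outside the comparison followed that of the rRNA pseudogene peak with a Pearson's r above 0.95, a description over 6 libraries that include the controls. Of the 130 risen peaks 51 (39.2%) had this profile, and 0 of the fallen. The rRNA pseudogene peak itself held 6581 and 7102 CPM in the controls, 3312 and 4203 after 4 hours and 3031 and 3464 with rosiglitazone. From 1 to 3 days it went from 3176 and 3393 to 4302 and 6401 CPM (0.70, SE 0.131, adjusted p = 0.00317). It was high in the controls and in S8 and intermediate in S7. With the peaks that followed it or the peak at the start of chromosome 9 (3000010 to 3038213, 13405 CPM in S8 against 6445 to 8196 in the other 3) set aside, 68 risen and 92 fallen peaks were left of 118024, and 28 of these 68 had closed at 4 hours. With them the number that had closed was 88 of 130. None of the 65 fallen peaks that had opened followed either peak. The profile and the classes at 4 hours rest on the same control and 4-hour libraries and are not independent. The densest 1% of peaks by CPM per kb held 44 of the 130 risen and 0 of the fallen peaks. Without S7, 280 of the 2255 risen peaks followed the rRNA pseudogene peak and 342 were among the densest 1%; without S8 these were 2 and 1 of the 5.

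By position, gene-end peaks moved up slightly and all other classes slightly down. The median log2 fold change was 0.09 over 16055 gene-end peaks (30 risen, 7 fallen), −0.05 over 53507 peaks in gene bodies (39 risen, 41 fallen), −0.04 over 38024 peaks that lay outside genes but less than 100 kb from one (43 and 34) and −0.07 over 11368 peaks farther away (18 and 10). The calls at gene ends were 0.187% risen and 0.0436% fallen, beside 0.109% and 0.0773% of all tested peaks. Without S7 gene ends held 1655 of the 2255 risen and 47 of the 831 fallen peaks, and without S8 they held 0 of the 5 risen. At gene ends the median was 0.01 with S7 alone and 0.17 with S8 alone. It was 0.03 under trended offsets. Gene-end peaks are also among the strongest, and over all peaks at 5 log2 CPM and above the median was 0.13, of which S7 alone gave 0.02 and S8 alone 0.24. The small rise of gene ends was seen with S8 and hardly with S7. Gene-end peaks also took a larger share of all counts in S8, which is largely the same observation, and its source was not tested.

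Promoters showed the same pattern by base composition. Of the tested peaks, 9397 shared at least 150 bp with a promoter window, the 300 bp from 250 before to 50 after a start site listed in RefSeq (GRCm38.p6). Of these peaks 16 rose (0.17%, beside 0.109% of all tested peaks) and 1 fell (0.0106%, beside 0.0773%). Without S7, 1391 rose and 14 fell, and 0 of the 5 peaks risen without S8 lay at a promoter window. Over 5 bins of nearly equal size, from the lowest to the highest GC content of the window, the median log2 fold change was 0.02, 0.07, 0.11, 0.15 and 0.20. With S8 alone it ran from 0.06 to 0.35 and with S7 alone from −0.03 to 0.05. Under trended offsets it ran from −0.02 to 0.10. The median level rose with GC content too, from 4.11 to 5.39 log2 CPM, and the parts of level and GC content were not told apart beyond the trended fit.

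**Figure D4:**
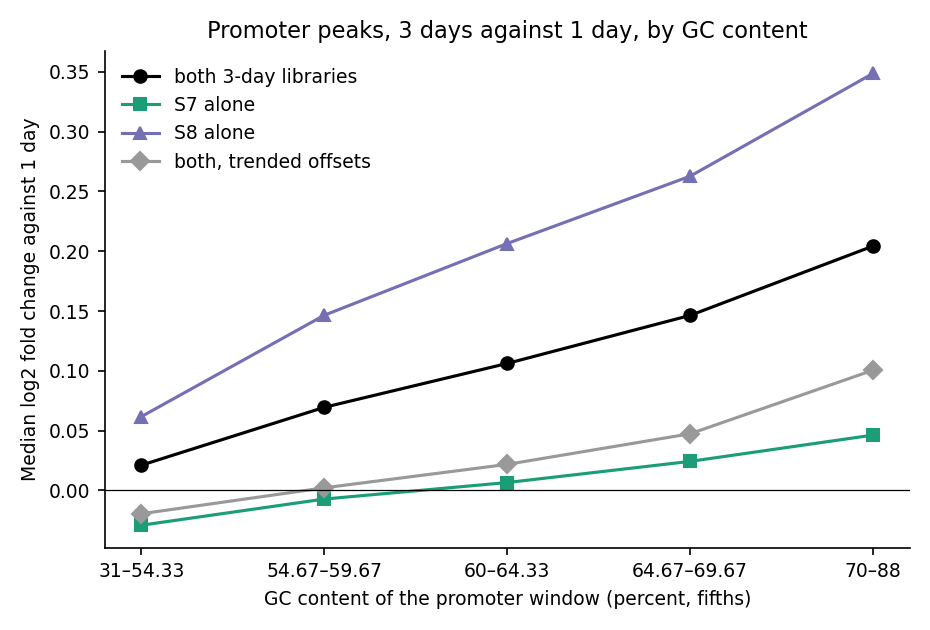
Median log2 fold change against the 1-day libraries of peaks at promoter windows, in 5 bins of the GC content of the window in percent, for both 3-day libraries, for S7 and S8 alone and for both under trended offsets. The line of S8 climbs from 0.06 to 0.35, that of S7 from −0.03 to 0.05.

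The promoter windows below belong to 3 of the 16 risen promoter peaks and to the 1 that fell, and are shown because they differ in GC content and in the matches they hold. They were chosen after the values were seen. The sequences are those of RefSeq on GRCm38.p6, 5′ to 3′ on the gene's strand, and lie at chr2:26237350-26237649 (minus strand, Qsox2), chr11:54437929-54438228 (plus strand, Fnip1), chr10:17948018-17948317 (minus strand, Heca) and chr1:107589756-107590055 (plus strand, Serpinb8). Capitals mark matches, on either strand, to the core of the cAMP response element TGACG, the full element TGACGTCA, the E box CACGTG and the AP-1 site TGANTCA; where matches overlap they form 1 run of capitals.
Qsox2: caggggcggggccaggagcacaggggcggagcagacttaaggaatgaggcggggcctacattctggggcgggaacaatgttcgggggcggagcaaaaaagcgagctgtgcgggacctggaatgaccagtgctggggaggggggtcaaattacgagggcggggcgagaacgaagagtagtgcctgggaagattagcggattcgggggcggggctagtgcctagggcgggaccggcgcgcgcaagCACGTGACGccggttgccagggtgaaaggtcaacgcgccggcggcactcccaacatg
Fnip1: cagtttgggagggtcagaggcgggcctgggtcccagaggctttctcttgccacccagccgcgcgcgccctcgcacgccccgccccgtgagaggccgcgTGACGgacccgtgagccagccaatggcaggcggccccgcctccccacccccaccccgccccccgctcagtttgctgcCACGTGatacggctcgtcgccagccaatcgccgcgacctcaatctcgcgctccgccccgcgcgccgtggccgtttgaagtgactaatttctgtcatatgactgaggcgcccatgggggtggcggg
Heca: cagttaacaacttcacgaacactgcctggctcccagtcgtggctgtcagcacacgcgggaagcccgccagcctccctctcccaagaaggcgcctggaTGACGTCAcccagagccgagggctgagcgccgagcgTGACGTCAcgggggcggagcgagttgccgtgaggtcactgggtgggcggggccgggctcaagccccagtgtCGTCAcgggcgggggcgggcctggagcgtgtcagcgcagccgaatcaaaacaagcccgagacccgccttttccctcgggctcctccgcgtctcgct
Serpinb8: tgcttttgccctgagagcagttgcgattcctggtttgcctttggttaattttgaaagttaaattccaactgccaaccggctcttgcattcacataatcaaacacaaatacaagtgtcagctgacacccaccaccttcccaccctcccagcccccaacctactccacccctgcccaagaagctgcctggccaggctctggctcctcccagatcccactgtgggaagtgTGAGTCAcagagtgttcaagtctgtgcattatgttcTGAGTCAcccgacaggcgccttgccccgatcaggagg

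Qsox2, which encodes a sulfhydryl oxidase, had a window of 65.7% GC and a peak that rose from 17.3 and 15.8 to 23.2 and 31.6 CPM (0.72, SE 0.136, adjusted p = 0.00364; without S8 0.49, adjusted p = 0.46). Fnip1, a partner of folliculin, had 70.7% GC and rose from 21.7 and 27.2 to 32.1 and 44.9 CPM (0.64, SE 0.132, adjusted p = 0.00995). Heca had 68.3% GC and rose from 34.2 and 38.5 to 43.9 and 63.5 CPM (0.56, SE 0.126, adjusted p = 0.0266). In each of the 3 the higher 3-day library was S8. Serpinb8, a serine protease inhibitor gene, had 53.3% GC and fell from 24.7 and 24.9 to 16.6 and 16.1 CPM (−0.60, SE 0.132, adjusted p = 0.0209; without S8 −0.58, adjusted p = 0.292), so there S7 and S8 lay together.

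The full cAMP response element was in 1 of the 16 risen windows, that of Heca, in 3.38% of all windows with a tested peak and in 2.24% of all 21238 windows. The core, searched on both strands and also counted within the full one, was in 4 of 16 risen windows and in 32.3% of windows with a peak (23.6% of all). The E box was in 5 of 16 and in 10.5% (7.84% of all). The GC box GGGCGG was in 14 of 16 and in 68.7% (46.2% of all). The AP-1 site was in 0 of 16 and in 5.45% (6.99% of all), and the window of Serpinb8 held 2 matches. Of the 16 risen peaks, 9 lay in the bin of highest GC content and 6 in the next. The windows set beside them were not matched for GC content, so the shares of GC-rich motifs cannot be told apart from it. These counts are small and describe letters in a window only.

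Other gene-end peaks that passed, chosen after their values were seen, included those of Limd2 (0.82, SE 0.159, adjusted p = 0.0049), Npas2, a clock transcription factor gene (0.86, SE 0.196, adjusted p = 0.0264), and Slc22a12, a urate transporter gene (1.15, SE 0.271, adjusted p = 0.0399). Slc22a12 was the only gene with more than 1 risen peak, the other lying outside it (0.62, adjusted p = 0.0448). Npas2 held 6.04 and 5.76 CPM at 1 day and 9.50 and 12.1 at 3 days. The gene-end peak of S100a5, which encodes a calcium-binding protein, fell from 18.7 and 16.1 to 10.2 and 7.75 CPM (−0.94, SE 0.159, adjusted p = 0.000887; without S8 −0.78, adjusted p = 0.16). That of Acot7, an acyl-CoA thioesterase gene, fell from 17.6 and 16.4 to 11 and 9.49 CPM (−0.72, SE 0.154, adjusted p = 0.016).

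Accessibility was summed over the peaks assigned to each protein-coding gene. Of 17021 genes 2 passed edgeR's test (0.0118%), Dsg2 and Vmn1r238, against 920 (5.41%) from 4 hours to 1 day. Dsg2, a desmosomal cadherin gene, rose from 59.3 and 56.5 to 81.3 and 94.1 CPM (0.60, SE 0.0909, adjusted p = 0.0212; without S8 0.49, adjusted p = 0.0744). Vmn1r238, chosen after its values were seen because the rule's level minimum leaves it out, carried 1 peak, which rose from 10.2 and 9.78 to 17.5 and 24.6 CPM (1.06, SE 0.174, adjusted p = 0.03; without S8 0.81, adjusted p = 0.122). In Dsg2 a single wide peak outside the gene passed among its 5 (0.75, SE 0.117, adjusted p = 0.00039; without S8 0.62, adjusted p = 0.02). The Vmn1r238 peak was wide too (6041 bp, beside a median width of 358 bp) and lay outside the gene. Over the 6 libraries outside the comparison its Pearson's r was 0.928 with the rRNA pseudogene peak. With the peak at the start of chromosome 9 it was 0.949, just under the threshold of 0.95. At an unadjusted p below 0.05 there were 1947 genes up and 856 down, and DESeq2 called 55 and 23. Without S8 no gene passed edgeR's test (1487 at an unadjusted p below 0.05), and without S7 2238 rose and 417 fell. The 95% interval lay within 2-fold for 92.8% of genes and within 1.5-fold for 79.4%. The gene lists below are read against all genes, of which 11.4% rose and 5.03% fell at an unadjusted p below 0.05, 41.4% had a negative estimate, and the median was 0.04. Both 3-day libraries lay above both 1-day libraries in 25.2% of genes and below them in 18.1%, so groups that do not overlap are common.

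No thermogenic gene was called between the times. Ucp1, the uncoupling protein of brown fat, stood at 8.94 and 7.28 CPM at 1 day and 7.08 and 9.26 at 3 days, against 4.44 and 3.63 in the controls. The groups overlapped, and the log2 fold change was −0.00 (SE 0.187), with a 95% interval from 0.764-fold to 1.31-fold. Ppargc1a, a coactivator of mitochondrial and thermogenic genes, held 309 and 291 CPM at 1 day and 296 and 277 at 3 days over 52 peaks (−0.07, SE 0.0587, interval 0.876-fold to 1.04-fold). Its controls had 216 and 244 CPM, below all 4 libraries. Cidea, a lipid droplet gene of brown fat, was at 18.9 and 18.8, then 17.3 and 18.5 CPM (−0.08, SE 0.125). Dio2, the enzyme that activates thyroid hormone, was covered by 1 weak peak (1.96 and 1.58, then 1.30 and 1.74 CPM), and its interval ran from 0.484-fold to 1.49-fold. Of the 28 tested members of the thermogenic and beige list none was called, 4 rose at an unadjusted p below 0.05 and none fell at it, and the median was 0.03 beside 0.04 for all genes.

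No gene that brakes the cAMP signal was called. Pde4d, a cAMP phosphodiesterase gene with 89 peaks, held 382 and 373 CPM at 1 day and 356 and 363 at 3 days (−0.07, SE 0.0475, interval 0.89-fold to 1.02-fold), against 285 and 273 in the controls. Pde4b held 164 and 155, then 147 and 141 CPM (−0.15, SE 0.0705, adjusted p = 0.304). In both genes the 3-day libraries lay below the 1-day and above the control libraries. Nr4a1, an immediate-early nuclear receptor gene, was at 196 and 214, then 195 and 212 CPM (−0.01, SE 0.0632). At the gene-end peak of Pde4b the levels were 5.39 and 2.66 CPM after 4 hours, 0.615 and 1.32 after 1 day, then 0.885 and 1.5 after 3 days, so it was low by 1 day and the 1-day and 3-day libraries overlapped. The cAMP and CREB feedback list had 0 of 32 genes called, with 4 up and 1 down at an unadjusted p below 0.05 and a median of 0.06. Its lowest p belonged to Prkar1a, the regulatory subunit of protein kinase A (45.5 and 46.7 to 58.1 and 55.3 CPM; 0.30, SE 0.0879, adjusted p = 0.13), Creb1 (0.33, adjusted p = 0.138) and Sik1, a kinase that restrains CREB coactivators (0.19, adjusted p = 0.174).

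Among receptors, Adrb3, the β3-adrenergic receptor of adipocytes, held 26.2 and 26.9 CPM in the controls and 11.1 and 14.7 after 4 hours. It held 13.4 and 12.7 CPM after 1 day and 11 and 12.2 after 3 days (−0.18, SE 0.143, interval 0.719-fold to 1.08-fold). All 6 forskolin libraries lay below both controls. Of the 29 tested genes for adrenergic and lipolysis receptors and G proteins 0 were called, with 4 up and 2 down at an unadjusted p below 0.05. They included Adcy3, an adenylyl cyclase gene (65.9 and 71.0 to 61.1 and 54.8 CPM; −0.24, adjusted p = 0.201) and Hcar1, the lactate receptor (0.36, adjusted p = 0.234). AP-1 and immediate-early genes had 0 of 22 called and a median of 0.05. Their lowest p values were those of Junb (0.25, adjusted p = 0.128), Jund (0.34, adjusted p = 0.131) and Fosl2 (0.20, adjusted p = 0.14). For Jund the change was 0.14 without S8 and 0.51 without S7.

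**Figure D5:**
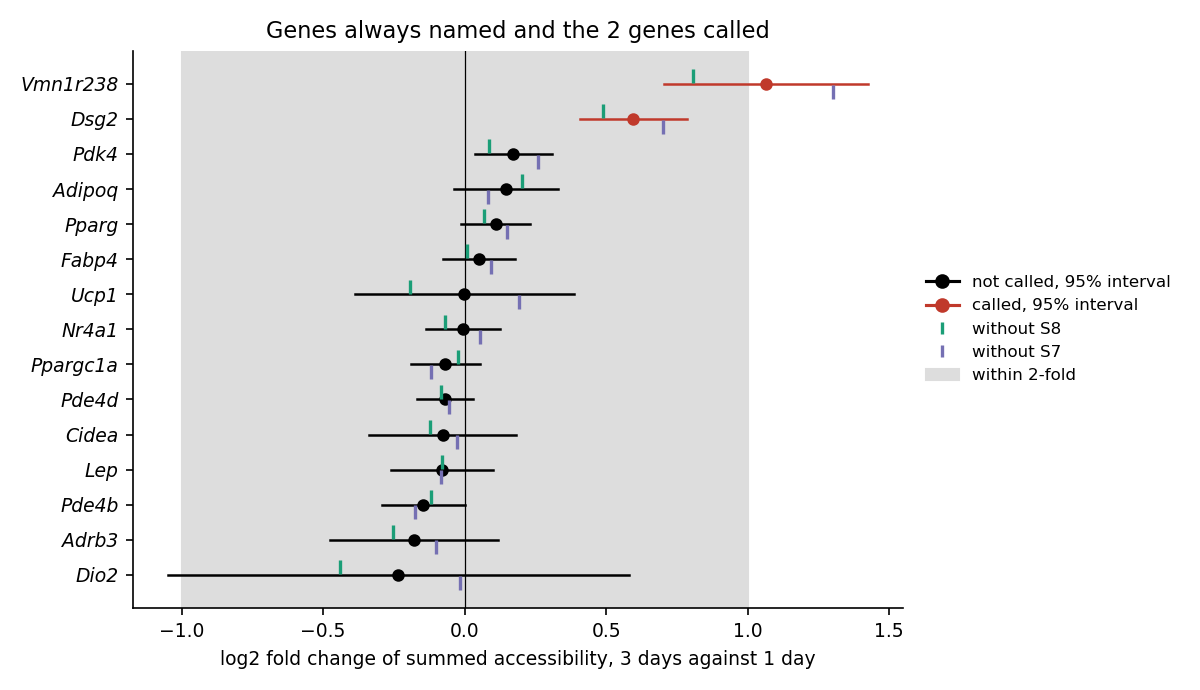
Log2 fold change of summed accessibility, 3 days against 1 day, for the genes always named and the 2 genes called (red); dots are estimates, lines are 95% intervals, and ticks give the estimate without S8 (green) and without S7 (purple). Ucp1 lies at −0.00 and all intervals but those of Dio2 and Vmn1r238 lie inside the grey band of 2-fold.

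No gene of adipocyte identity was called. Pparg, the master regulator of fat cells, was at 199 and 189, then 203 and 215 CPM (0.11, SE 0.0582). Adipoq, the adiponectin gene, was at 60.4 and 59.5, then 69.1 and 63.5 CPM (0.15, SE 0.088), Fabp4, a fatty acid carrier gene, at 141 and 138, then 141 and 149 CPM (0.05, SE 0.0607), and Lep, the leptin gene, at 77.1 and 71.9, then 70.5 and 70.3 CPM (−0.08, SE 0.0866). Pdk4, which restrains glucose oxidation, was at 157 and 153, then 165 and 186 CPM (0.17, SE 0.0651, adjusted p = 0.198). All 8 adipocyte markers (these, without Lep and Pdk4, and Cebpa, Plin1, Cidec, Lipe and Lpl) had peaks, none was called, and their summed level was 895 and 889 CPM at 1 day and 925 and 972 at 3 days.

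The metabolic lists gave no call by edgeR's test. In fatty acid synthesis 0 of 20 genes were called and 9 rose at an unadjusted p below 0.05 with none falling at it, a share of 45.0% beside 11.4% of all genes, with a median of 0.15 beside 0.04. The median was 0.10 with S7 alone and 0.19 with S8 alone. Fasn, the fatty acid synthase, held 61.3 and 73.1 CPM at 1 day and 81.9 and 105 at 3 days (0.47, SE 0.103, adjusted p = 0.0735, 0.0179 by DESeq2). Both 3-day libraries lay above both 1-day libraries, S8 being the highest, and without S8 the change was 0.28. Pcx, pyruvate carboxylase, held 188 and 200, then 225 and 234 CPM (0.24, SE 0.0581, adjusted p = 0.0984), and Acaca, acetyl-CoA carboxylase, 119 and 137, then 144 and 162 CPM (0.25, SE 0.0763, adjusted p = 0.131). In triglyceride synthesis 0 of 18 were called (median 0.03; Agpat2 0.24, Dgat1 0.18 and Gpd1 0.20 had the smallest p). In lipolysis 0 of 17 were called and none reached an unadjusted p of 0.05 (median 0.05), with Plin4 at 0.14, Abhd6 at 0.19 and Cidec at 0.18. In fatty acid oxidation 0 of 24 were called (3 up at an unadjusted p below 0.05, median 0.10), Cpt1a, which admits fatty acids to mitochondria, being at 0.18 (adjusted p = 0.151). Glucose uptake and glycolysis had 0 of 25 called (median 0.03), insulin signalling 0 of 25 (6 up, median 0.08; Foxo1 0.22, Foxo3 0.19) and oxidative phosphorylation 0 of 30 (median 0.07; Esrra 0.35, Gabpb1 0.38, Ndufs1 0.46). The PPAR target and adipocyte identity list had 0 of 32 called and a median of 0.07, brown and white fat transcription factors 0 of 33 and 0.08.

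Extracellular matrix genes were the list with the most members below 0. None of 28 was called, 24 had a negative estimate, 5 (17.9%, beside 5.03% of all genes) fell at an unadjusted p below 0.05 and none rose at it. The negative estimates were 85.7% of the list, beside 41.4% of all genes, and the median was −0.08, beside 0.04 (S7 alone −0.06, S8 alone −0.12, trended offsets −0.13). Col1a2, a chain of type I collagen, was at 99.2 and 98.5, then 87.8 and 83.2 CPM (−0.21, SE 0.0782, adjusted p = 0.197), with Tnc at −0.19 and Col5a2 at −0.19. Among secreted factors Slit2 was at 56.5 and 50.9, then 41.2 and 42.6 CPM (−0.36, SE 0.0944, adjusted p = 0.111). Vegfa was at 144 and 156, then 172 and 181 CPM (0.23, SE 0.0676, adjusted p = 0.13), and Gdf15 at 0.25 (adjusted p = 0.142). None of these genes passed the test. The list of adipokines and batokines had 0 of 24 called, 6 up and 2 down at an unadjusted p below 0.05.

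Of the inflammatory genes Ptgs2, cyclooxygenase 2, was at 84.8 and 87.8, then 66.0 and 71.5 CPM (−0.33, SE 0.0879, adjusted p = 0.113), and it passed under trended offsets (adjusted p = 0.00861). Nfkb1 was at −0.15 and Nfkb2 at 0.30, and 0 of 25 genes of this list were called. Interferon response genes had 0 of 25 called and a median of −0.03, with Irf1 at 0.20 (adjusted p = 0.13). Of the progenitor genes 0 of 24 were called, 15 had a positive and 9 a negative estimate, and the median was 0.01. At an unadjusted p below 0.05, 2 rose and 2 fell. Pdgfrb had the lowest estimate of the list, at 25.9 and 27.6, then 19.9 and 19.6 CPM (−0.44, SE 0.116, adjusted p = 0.111). Circadian clock genes had 0 of 19 called and 6 up at an unadjusted p below 0.05 (31.6%, beside 11.4% of all genes). Their median was 0.11 (S7 alone 0.04, S8 alone 0.15). Among the 6 were Nr1d1 (161 and 168 to 183 and 200 CPM; 0.22, SE 0.0652, adjusted p = 0.131) and Tef (0.19, adjusted p = 0.143). The sources used here do not give the time of day of harvest.

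The remaining lists were also without a call: hypoxia and angiogenesis (0 of 19, median 0.02), actin, SRF and YAP targets (0 of 23, median 0.03), cell cycle (0 of 24, median 0.09), stress and unfolded protein response (0 of 23, median 0.11) and ribosomal proteins (0 of 24, median 0.12). Over the 592 distinct genes of all lists, edgeR called 0 and DESeq2 called Fasn alone. Without S8 the number was 0, without S7 91 rose and 11 fell, and under trended offsets 4 rose and 5 fell, Fasn, Pcx, Jund and Esrra being the risen ones.

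Genes of other cell types showed no call either. Of macrophage and immune markers 13 of 15 were tested (Adgre1 and Tyrobp were not), with a summed level of 262 and 260 CPM at 1 day and 255 and 249 at 3 days. Of these 13, 6 had a positive and 7 a negative estimate, with a median of −0.03, and 1 rose and 2 fell at an unadjusted p below 0.05. Csf1r, the receptor of a macrophage growth factor, was at 16.5 and 15.4, then 13.6 and 11.8 CPM (−0.32, SE 0.139, adjusted p = 0.252). The highest estimate of the list was 0.28. Endothelial markers (11 of 12 tested, not Sox17) summed to 354 and 332, then 350 and 328 CPM. Of the 11, 3 had a positive and 8 a negative estimate, with a median of −0.13, beside 0.04 for all genes. At an unadjusted p below 0.05, 1 rose and 2 fell. Pecam1, at 0.29 (adjusted p = 0.131), had the highest estimate of the list. Skeletal muscle markers (10 of 12 tested, not Myf5 and Myod1) summed to 188 and 176, then 179 and 171 CPM, bone and cartilage markers (12 of 12) to 663 and 670, then 654 and 639 CPM, and neuronal markers (12 of 12) to 384 and 365, then 361 and 366 CPM. Open chromatin at these genes is not a measure of their transcription. The cells came from 1 adipocyte line, so these lists do not count cells of other types. In bulk libraries fewer cells with a site open and less opening per cell cannot be told apart.

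Some genes came close to the threshold, with an adjusted p of 0.0536 and both 3-day libraries beyond both 1-day libraries, and were chosen for that after the values were seen. Aqp1, a water channel gene, was at 28.4 and 26.0, then 19.4 and 16.2 CPM (−0.60, SE 0.125). Ptgs1, whose single peak is described above, was at 141 and 141, then 115 and 103 CPM over 20 peaks (−0.37, SE 0.0736). Kif2c, a mitotic kinesin gene, was at 64.8 and 68.7, then 51.2 and 46.3 CPM (−0.45, SE 0.0865). Rrp15, a ribosome biogenesis gene, was at 25.8 and 23.7, then 34.9 and 40.7 CPM (0.61, SE 0.12), and Znrf3, a ubiquitin ligase gene of the Wnt pathway, at 66.0 and 76.0, then 89.6 and 101 CPM (0.42, SE 0.0864). The lowest adjusted p of an uncalled peak was 0.0507, at a log2 fold change of −0.49, and the highest among called peaks was 0.0497.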

How the data were processed

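The deposited table holds raw counts, not normalized, in 122984 peaks (median width 358 bp) for 10 libraries; the authors' other steps are known only by name, per the submitters' processing notes: Bowtie2 and fastp, MACS2, Picard and SAMtools, deepTools and featureCounts, with GRCm38 (mm10). The sources used here do not say how peaks were pooled, whether duplicates were removed or whether cut sites were shifted. Per the labels, 10000 sorted nuclei went into each library, amplified for 12 cycles.

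Counts were fitted in 1 model over all 10 libraries with edgeR 4.0.16 (R 4.3.3; glmQLFit, robust, TMM, default filter), and a peak or gene was called where its p, adjusted after Benjamini and Hochberg across the table, was below 0.05. The biological coefficient of variation was 0.163. Intervals (95%) come from the estimate, its SE (from the F statistic) and the total degrees of freedom. Levels are CPM after TMM; log2 CPM used a prior count of 2. Peaks went to a protein-coding gene by RefSeq bounds (GRCm38.p6): within 1 kb of an end, in the body, or else the nearest end within 50 kb. Gene counts sum a gene's peaks and keep the scaling of the peaks. DESeq2 1.42.0, other scalings, filters and libraries left out were alternatives. The scripts were tested on simulated data.

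The rule named, among called peaks with groups that do not overlap and a mean CPM at or above the median, the 10 with the largest rise and the 10 with the largest fall, at most 1 per gene; likewise called genes by p, genes with most called peaks (Slc22a12 and Ppm1l, 2 each), the 3 members of each list with the smallest p, and 13 genes always. All 663 members of 29 lists were found in the annotation. The comparison, the lists and the rule were chosen with earlier results of these data known. Libraries carry a group but no replicate number. Some genes that the rule takes are not reported here.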

Additional observations from a re-analysis of the deposited data

How the results depend on the processing

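For peaks at 3 days against 1 day (222 calls), DESeq2 size factors gave 222 (147 risen, 75 fallen), library size alone 294 (120 and 174), no filter 241, trended offsets 414 (214 and 200), DESeq2's Wald test 38 (34 and 4) and the 2 groups alone 130 (84 and 46). With 1 of the 4 libraries left out the calls ran from 5 (without S8) to 3086 (without S7), with 9 without S5 and 26 without S6. The share of peaks with an interval within 2-fold, 55.8%, was 54.6% to 59.9% under the other scalings and the 2 groups alone and 39.3% to 45.5% with 1 library left out.

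For genes (2 calls), library size alone gave 235 (86 risen, 149 fallen), trended offsets 249 (99 and 150) and DESeq2's Wald test 78. The 2 groups alone gave 0 (1839 at an unadjusted p below 0.05 by edgeR) and gene-end peaks only 0 (1911). With 1 library left out the gene calls ran from 0 (without S5, S6 or S8; 1016, 2648 and 1487 at an unadjusted p below 0.05) to 2655 (without S7). The cause of these differences was not tested. For 1 day against 4 hours (6621), DESeq2 gave 2560 and the 2 groups alone 10614, and for rosiglitazone against control (7815) DESeq2 gave 3691; 4 hours against control stayed within 1.5 times of 37408 under the alternatives run.

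Of the alternatives chosen after seeing the data, the share of fallen peaks that had opened at 4 hours (70.7%) was 59.5% under trended offsets, 61.5% with library size alone and 50.9% without S7, in all from 50% (DESeq2) to 100% (without S5, 1 peak), and the share of risen peaks that had closed (67.7%) ran from 52.4% to 87.5%. No named gene or peak that was called in the full fit changed sign under an alternative run. No paired analysis was possible because the columns carry no replicate number. The width of the intervals followed the level of the peak: 0.0747% lay within 2-fold below 0 log2 CPM and 99.5% at 3 or above.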
